A study of Sus scrofa with 7 samples.

Results

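Immediate early genes were followed in hypothalami from piglets whose distal ileum was infused with antibiotics, set against saline-infused piglets. The set was fixed as 10 symbols (FOS, FOSB, JUN, JUNB, EGR1, EGR3, NR4A1, NR4A2, DUSP1 and BTG2), and members were the rows of the deposited table whose gene name equalled one of them. FOS, EGR1, NR4A2, DUSP1 and BTG2 were found in this way, 5 of 10, among 16991 features of the table. EGR3 was reached only through its Ensembl ID, in a row named EGR-3 that the authors had not tested. FOSB, JUN, JUNB and NR4A1 were matched to no row and are not analysed here.

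The antibiotic group was infused with 10 mL of saline that carried daily 150 mg/kg of ampicillin, 4 mg/kg of gentamicin and 30 mg/kg of metronidazole, and the control group with 10 mL of 0.9% NaCl alone. All animals were Duroc x Landrace x Large White piglets aged 45 postnatal days, housed singly, with a T-cannula (a fixed tube into the gut) in the distal ileum, so the controls had undergone the same surgery. RNA-seq libraries came from 3 antibiotic and 4 control hypothalami, out of 12 piglets that had been randomised. The labels do not say how long after an infusion the tissue was taken.

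The authors' deposited table holds 1 FPKM value per group (fragment counts divided by transcript length and by the mapped total), so no value of a single animal, no spread and no depth per library could be given, and whether the animals of the 2 groups overlap is unknown. All FPKM values, folds and q-values below are from that table, and only the authors' q can carry the error between animals. A gene is said to have risen or fallen where that q was under 0.05, and log2 values are of antibiotic over control FPKM. Of 13352 tested features, 22.2% fell and 19.0% rose by this rule, and their median log2 was -0.032. Counts for the lists below are to be read beside these shares. The smallest q was 0.000336, and 2081 tested features shared the smallest p. A q of 0.000336 is thus a floor and does not rank the genes that have it. In whole tissue, fewer cells of a type and less RNA per cell cannot be told apart.

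Immediate early genes are switched on within minutes of a stimulus, without new protein being made first. In neurons, calcium entry and kinase cascades act on transcription factors such as CREB and SRF that already sit at their promoters. Most of the products are themselves transcription factors that go on to set slower genes, and others switch the signal off again. In the hypothalamus the FOS product is widely used as a mark of recently active neurons, although glia, vessel and immune cells also induce these genes.

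FOS, EGR1, DUSP1 and BTG2 fell in the antibiotic group and NR4A2 did not pass the test. That is 4 of 5 tested members falling and none rising, where 22.2% of all tested features fell. The members were chosen with earlier results of these data known, so this count is described and was not tested. FOS moved furthest, at 4.33-fold lower, and the other 3 were between 1.60-fold and 1.87-fold lower. The median log2 over the 5 tested members was -0.90, against -0.032 over all tested features. FOS alone also met the authors' own call of significance, which asks for a change of at least 2-fold, and which 8.44% of tested features met downwards.

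The make-up of the libraries differed between the groups as well, and its part in the falls was not tested. All FPKM values summed to 563424 in the antibiotic group and to 1231512 in the control group, and to 399119 in antibiotic and 559874 in control without the 10 most abundant features. The row of 5.8S ribosomal RNA stood at 2094 FPKM in the antibiotic group and 172307 FPKM in the control group (log2 -6.36, authors' q = 0.129). The most abundant tested row of 7SK, a small nuclear RNA, fell to 104 FPKM in the antibiotic group, against 909 FPKM in the control group (authors' q = 0.000336). FOS, EGR1, DUSP1 and BTG2 kept a negative log2 when the groups were rescaled by their upper quartile, by a trimmed mean or by quantile normalization. Values were -2.13 to -2.03 for FOS and -0.94 to -0.60 for the other 3. Upper quartile and trimmed mean scaling move all features by the same amount, here 0.081 and 0.031 on the log2 scale. Rescaling 1 value per group does not test the part of the make-up.

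**Figure D1:**
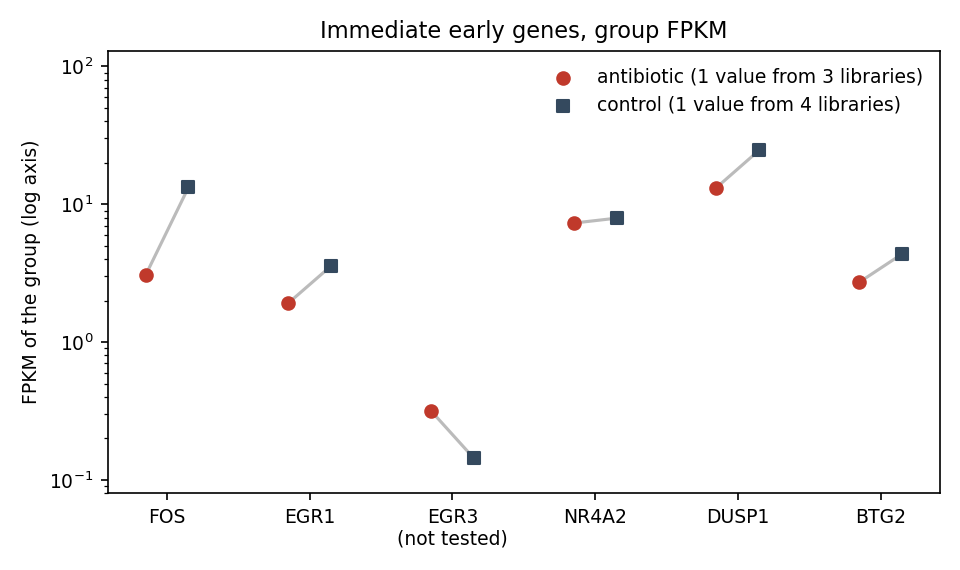
FPKM of the group on a log axis for the 5 members found by symbol and for EGR3, with the antibiotic value (circle) left of the control value (square) and a line joining them. FOS, EGR1, DUSP1 and BTG2 slope up towards control and NR4A2 is almost level. EGR3 slopes down towards control, lies far below the rest and was not tested.

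FOS encodes a basic leucine zipper protein that pairs with JUN proteins to form the transcription factor AP-1. It stood at 3.06 FPKM in the antibiotic group and at 13.2 FPKM in the control group (log2 -2.12, authors' q = 0.000336). Of all tested features, 1.67% had a lower log2 than FOS. The antibiotic level of FOS exceeded that of 23.5% of tested features, while its control level exceeded that of 63.9%. FOS was thus among the less abundant of the tested features in the antibiotic group and among the more abundant in the control group. The gene (ENSSSCG00000002383) lies at chromosome 7, 104293656 to 104297121, in the coordinates of the table, a locus of 3466 bases. The pig build susScr3 appears in the submitters' processing notes, but nothing ties these coordinates to it. No other row of the table overlaps this locus, nor that of any other member.

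EGR1, a zinc finger transcription factor with 2 reference transcripts in its row, fell to 1.92 FPKM in the antibiotic group, against 3.57 FPKM in the control group. This was a 1.86-fold difference with a log2 of -0.90 (authors' q = 0.00291). EGR1 (ENSSSCG00000014336; chromosome 2, 146156064 to 146160020) had the lowest level of the 5 tested members in both groups. EGR3, a related factor that EGR1-inducing stimuli also switch on, was listed at 0.317 FPKM in the antibiotic group and at 0.143 FPKM in the control group. Under 1% of tested features had so low a level (0.397% in antibiotic and 0.172% in control). EGR3 had not been tested by the authors, so no change can be stated for it.

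NR4A2, an orphan nuclear receptor known as NURR1 and needed for midbrain dopamine neurons, stood at 7.30 FPKM in the antibiotic group and 7.92 FPKM in the control group. Its log2 was -0.12 with an authors' q of 0.688, and 45.9% of tested features had a lower log2. Its locus (ENSSSCG00000015871; chromosome 15, 70671006 to 70689184) spans 18179 bases and is the longest of the members. Whether NR4A2 differed in its response from FOS was not tested, since the table holds no value per animal. The level of FOS divided by that of NR4A2 was 0.419 in the antibiotic group and 1.67 in the control group, so the order of these genes by level was opposite in the 2 groups.

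The remaining members belong to the arm that ends the response. DUSP1, a phosphatase of the nucleus that removes the activating phosphates from MAP kinases, stood at 13.2 FPKM in the antibiotic group and 24.7 FPKM in the control group. It fell by 0.90 on the log2 scale (authors' q = 0.000336) and had the highest level of the 5 tested members in both groups. DUSP1 (ENSSSCG00000016991; chromosome 16, 55768408 to 55771513) and EGR1 differed by almost the same factor. DUSP1 divided by EGR1 gave 6.89 in the antibiotic group and 6.92 in the control group.

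BTG2, an antiproliferative protein that recruits the CCR4-NOT complex to shorten the poly(A) tails of messenger RNAs, fell to 2.71 FPKM in the antibiotic group, against 4.35 FPKM in the control group. Its log2 was -0.68 (authors' q = 0.0150), the weakest of the 4 falls, and it did not pass a q of 0.01, which 15.5% of tested features passed downwards. BTG2 (ENSSSCG00000028322) lies at chromosome 9, 70327444 to 70331400. The ratio of FOS to BTG2 was 1.13 in the antibiotic group and 3.05 in the control group, and that of EGR1 to BTG2 was 0.707 in the antibiotic group and 0.821 in the control group. By level the antibiotic group therefore ran DUSP1, NR4A2, FOS, BTG2, EGR1, and the control group DUSP1, FOS, NR4A2, BTG2, EGR1. Whether neighbours in these orders differ beyond their spread between animals is unknown.

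**Figure D2:**
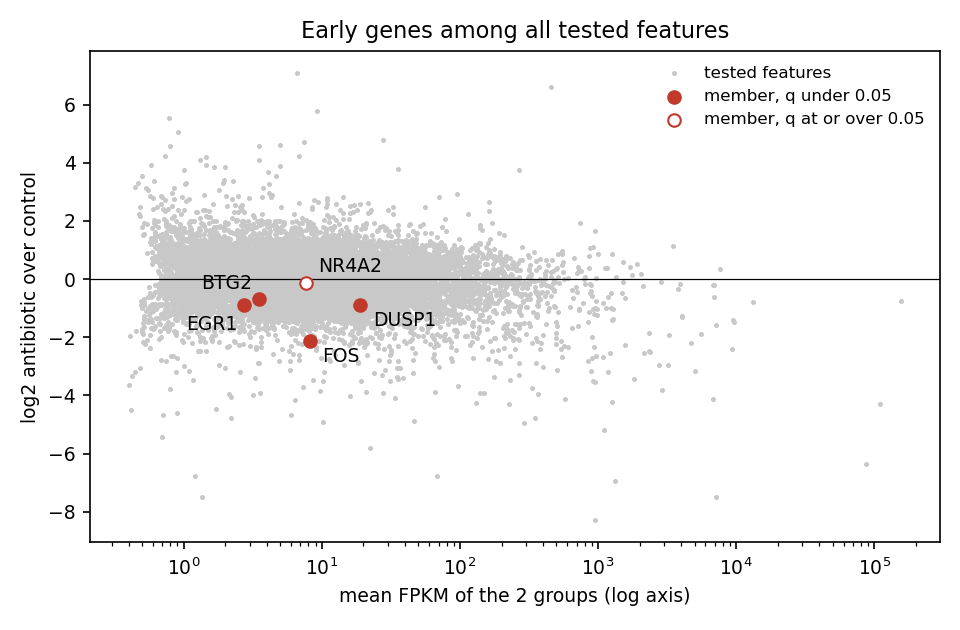
Log2 of antibiotic over control (vertical axis) against the mean FPKM of the 2 groups on a log axis, with tested features as grey dots, members with a q under 0.05 as filled circles and NR4A2 as an open circle; features listed at 0 in a group are not drawn. FOS, at a log2 of -2.12, lies at the lower edge of the features with like expression, whereas EGR1, DUSP1 and BTG2 lie inside the cloud.

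The 4 members that fell shared a short locus, of 3106 to 3957 bases. Features with a locus of over 2000 and up to 5000 bases did not run lower as a whole. Of 1014 such features 19.9% fell and 21.2% rose, and their median log2 was 0.15. By level, EGR1 and BTG2 belonged to the features with a mean of over 1 and up to 5 FPKM, of which 15.1% fell. FOS, NR4A2 and DUSP1 belonged to those of over 5 and up to 20 FPKM, of which 23.7% fell. Whether locus length or level had a part in the falls was not tested.

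Other immediate early genes did not follow as a list. Of 35 further symbols 28 had a row and 22 had been tested, of which 3 fell, 1 rose and 18 did not pass. Their median log2 was 0.10, and 13.6% of them fell, against 22.2% of all tested features. KLF10, a zinc finger factor also induced by TGF-beta, fell 1.78-fold to 5.59 FPKM in the antibiotic group (authors' q = 0.000625). MYC, the growth factor-induced regulator of cell growth, fell to 5.78 FPKM in the antibiotic group, against 9.26 FPKM in the control group (authors' q = 0.00729). CCN2, listed as CTGF, encodes a secreted matrix-associated protein and stood at 6.23 FPKM in the antibiotic group and 9.31 FPKM in the control group (authors' q = 0.0183). The single rise was that of CEBPD, a leucine zipper factor of the acute phase response, which stood at 7.58 FPKM in the antibiotic group and 3.84 FPKM in the control group (authors' q = 0.00944). The CEBPD row overlaps 2 other rows, and its reads may in part belong to them.

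Some of the closest relatives of the members were near the floor of the table. NPAS4, a factor that in rodents responds to neuronal depolarisation almost exclusively, was listed at 0.0492 FPKM in the antibiotic group and 0.327 FPKM in the control group. NR4A3, the third receptor of the NR4A family, had 0.330 FPKM in the antibiotic group and 0.625 FPKM in the control group. EGR2 had 0.247 FPKM in the antibiotic group and 0.367 FPKM in the control group, and EGR4 had 0.378 FPKM in the antibiotic group and 0.490 FPKM in the control group. None of these 4 genes had been tested by the authors, so no change can be stated for them. IER2, an early gene of uncertain biochemical role, stood at 6.13 FPKM in the antibiotic group and 4.81 FPKM in the control group (authors' q = 0.438). ARC, FOSL2, JUND, CREB1 and DUSP6 were matched to no row and are not analysed here.

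Regulators that act upstream of the early genes changed in both directions. Of 11 tested genes of the CREB, SRF and MEF2 group 5 rose, 2 fell and 4 failed the test, and the median log2 was 0.37. SRF, which binds the serum response element of the FOS and EGR1 promoters, rose to 2.85 FPKM in the antibiotic group, against 1.52 FPKM in the control group (authors' q = 0.00524). Its coactivator MRTFA, listed as MKL1, rose 1.83-fold (authors' q = 0.00467), and MEF2D, a calcium-regulated factor, rose 1.72-fold (authors' q = 0.000625). CRTC1, a coactivator of CREB, stood at 9.62 FPKM in the antibiotic group and 3.79 FPKM in the control group (authors' q = 0.000336). MEF2A fell to 26.0 FPKM in the antibiotic group, against 47.4 FPKM in the control group (authors' q = 0.000336). The remaining rise was that of CREBBP, the CREB-binding acetyltransferase, and the remaining fall that of ELK4, a partner of SRF (log2 0.47 and -0.71, authors' q = 0.0276 and 0.0122). FOS and EGR1 were lower in the group in which SRF, MRTFA, MEF2D, CRTC1 and CREBBP were higher and MEF2A and ELK4 lower. Any part of these regulators in the falls was not tested.

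Among 18 tested kinases that carry signals to early genes, 4 rose, 3 fell and 11 failed the test, and the median log2 was 0.10. PRKACB, a catalytic subunit of protein kinase A, fell most, with 197 FPKM in the antibiotic group and 800 FPKM in the control group (authors' q = 0.000336). RPS6KA5, the kinase MSK1 that phosphorylates CREB and histone H3 at early genes, fell 1.72-fold to 4.08 FPKM (authors' q = 0.00207). RPS6KA2, a kinase of the RSK family, rose 1.69-fold (authors' q = 0.000336), and CAMK2A, a calcium/calmodulin-dependent kinase of synapses, rose 1.75-fold (authors' q = 0.00138). The other rises were those of MAP2K2 and PRKACA and the other fall that of MAPK9 (log2 0.42, 0.51 and -0.52).

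Partners of the member proteins mostly did not pass. Of 11 tested AP-1 partners and ATF or MAF factors 1 fell and none rose, and the fall was that of NFE2L2, which drives the antioxidant response (log2 -0.51, authors' q = 0.0175). NFE2L1 and MAFK had log2 values of 0.56 and 1.32 (authors' q = 0.0699 and 0.157). Of 3 tested cofactors of EGR and NR4A proteins, NAB1, a corepressor that binds EGR1, fell 1.82-fold to 12.6 FPKM (authors' q = 0.000336). RXRB and RXRG, partners of NR4A2 in heterodimers, had log2 values of 0.57 and 0.032 (authors' q = 0.138 and 0.910), and the RXRB row overlaps another row. The corepressor NAB2 was listed at 0.00336 FPKM in the antibiotic group and 0.0242 FPKM in the control group and had not been tested.

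The families of DUSP1 and BTG2 differed from one another in their counts, a difference that was not tested. Of 3 tested further MAP kinase phosphatases DUSP7 rose 1.46-fold (authors' q = 0.0209), DUSP10 fell 1.42-fold (authors' q = 0.0477) and DUSP14 did not pass (authors' q = 0.825; its row overlaps 3 others). Of 10 tested BTG/TOB relatives and CCR4-NOT subunits 5 fell and none rose, with a median log2 of -0.38. Over all tested features 22.2% fell and 19.0% rose. BTG3 fell 2.82-fold to 7.36 FPKM and BTG1 fell 1.53-fold to 22.7 FPKM (authors' q = 0.000336 and 0.00430). The CCR4-NOT subunits CNOT2, CNOT6 and CNOT7 also fell, by 0.96, 0.89 and 0.60 on the log2 scale (authors' q = 0.000336, 0.000336 and 0.0328).

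Late response genes, which depend on the factors made in the early wave or on continued activity, did not move as one. Of 6 tested genes 2 fell, 2 rose and 2 did not pass. BDNF, a neurotrophin, fell 3.24-fold and HOMER1, a scaffold of glutamate receptors, fell 1.70-fold (authors' q = 0.000336 and 0.00114). NPTX2, a pentraxin that gathers glutamate receptors at synapses, rose 1.82-fold, and RASD1, a small GTPase also induced by glucocorticoids, rose 2.36-fold (authors' q = 0.00764 and 0.000336). The RASD1 row overlaps another row.

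**Figure D3:**
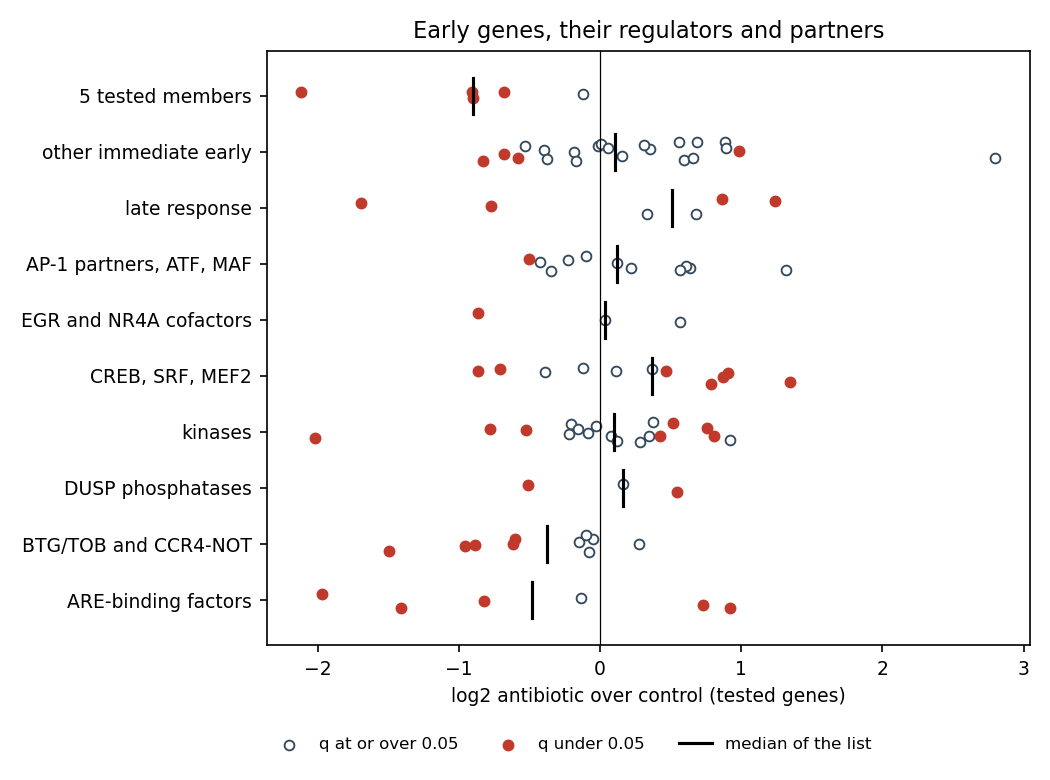
Log2 of antibiotic over control for the tested genes of each list, drawn one list per line; filled circles have an authors' q under 0.05, open circles do not, and a black bar marks the median of the list. The median of the 5 tested members lies at -0.90, while that of the other immediate early genes lies at 0.10 with 3 falls and 1 rise.

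Markers of the tissue and of other cell types differed between the groups, some lists towards lower and others towards higher levels in antibiotic, and their part in the result was not tested. Of 12 tested hypothalamic markers 5 fell (OXT, PMCH, SST, HDC and FEZF1) and none rose. For this and the other marker lists, the shares over all tested features were 22.2% falling and 19.0% rising. The summed level of the tested hypothalamic markers was 433 FPKM in the antibiotic group and 1089 FPKM in the control group. The same sum over tested markers is given for each list here. The log2 was negative for 10 of the 12. AGRP, listed at 0.211 FPKM in control, and POMC had log2 values of 3.87 and 0.77 without passing (authors' q = 0.302 and 0.0938). Most of the difference in the sum lay in OXT, PMCH and SST. These stood at 96.8, 18.6 and 76.8 FPKM in the antibiotic group and at 310, 282 and 199 FPKM in the control group. No hypothalamic marker with a row was at 0 in either group. NKX2-1 was matched to no row. Of 7 tested general neuron markers 3 rose (TUBB3, NEFL and NEFM), 1 fell (STMN2) and 3 did not pass, with a summed level of 1491 FPKM in the antibiotic group and 1209 FPKM in the control group. The median log2 of the neuron list was -0.059, and it turned to 0.022 after upper quartile scaling and to 0.36 after quantile normalization.

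Blood markers had the largest difference in summed level among the 8 marker lists, with 1127 FPKM in the antibiotic group and 11094 FPKM in the control group. Of 5 tested members 3 fell (HBB, HBA and PTPRC). The haemoglobin gene HBB stood at 386 FPKM in the antibiotic group and 5400 FPKM in the control group, and HBA, whose row overlaps 4 others, at 729 FPKM in the antibiotic group and 5677 FPKM in the control group (both authors' q = 0.000336). S100A8 and S100A9, genes of neutrophils, had not been tested and were listed at 0.700 and 0.587 FPKM in the antibiotic group and at 0 in the control group.

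Of 6 tested microglia markers 3 fell (P2RY12, CX3CR1 and C1QA; 215 FPKM summed in antibiotic and 401 in control). Of 7 tested markers for choroid plexus and ependyma TTR, KCNJ13, CLIC6 and CCDC153 fell and FOXJ1 rose (137 FPKM summed in antibiotic and 355 in control). TTR alone stood at 70.6 FPKM in antibiotic and 289 FPKM in control, and the difference in this sum was mostly that of TTR. FOLR1, which did not pass, stood at 53.7 FPKM in antibiotic and 46.2 FPKM in control. Endothelial markers went the other way, since 4 of 6 tested members rose (CLDN5, FLT1, VWF and ESAM) and none fell (175 FPKM summed in antibiotic and 96.8 in control). Of 6 tested astrocyte markers GFAP and SLC1A2 rose and AQP4 fell, of 6 tested oligodendrocyte markers MAG and CNP rose and UGT8 fell, and the summed levels were 5692 and 11610 FPKM in the antibiotic group and 3138 and 9436 FPKM in the control group. The rows of P2RY12, KCNJ13 and CCDC153 overlap other rows of the table.

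**Figure D4:**
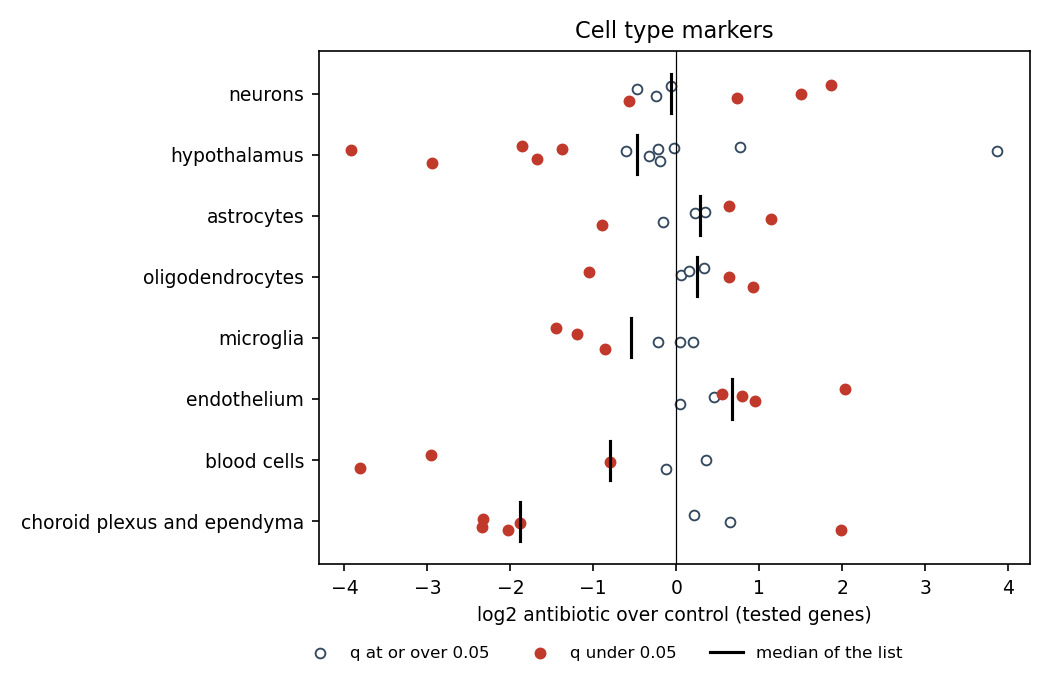
Log2 of antibiotic over control for the tested markers of 8 cell types or tissues, one list per line, with filled circles for an authors' q under 0.05 and a black bar at the median. The haemoglobin genes HBB and HBA lie at -3.81 and -2.96 on the log2 axis, at the left end of the blood cell list, and the endothelial markers lie at or above 0.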

How the data were processed

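RNA-seq was made from 3 antibiotic and 4 control hypothalami; per the labels' protocols RNA was extracted with Trizol and libraries were built with an Illumina TruSeq kit from 1 ug of total RNA. Bowtie 0.12.2 and the builds susScr3 and mm8 appear in the submitters' processing notes, without roles. For the aligner settings, the annotation and the use of strand, nothing was given in the sources used here. Per the file headers, the authors deposited 1 FPKM value per gene and group, a log2 fold, a test statistic (a score, not used), a p-value and a q-value. How libraries were combined, scaled and tested is not stated. The limma test planned for values per library could not be run, and depth is unknown.

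Members, gene lists and tests were chosen with earlier results of these data known. Rows were matched by gene name, then by Ensembl ID (177 of 217 list symbols, 18 by ID), and where a symbol had more than 1 row, a tested row was preferred, then the row with the higher mean FPKM. The 12 symbols set in advance and the 4 genes of each list with the smallest p were named; other genes named beside counts of 5 or fewer were chosen after their values were seen. A gene that this rule takes is not reported here. The deposited fold differed from the FPKM ratio by over 0.01 in 16 of 13339 features. Scalings, pseudocounts, minimum levels and stricter calls were recomputed in Python 3.11.15 with pandas 2.3.3, and the scalings were tested on simulated data. The simulation changed far fewer features than differed here, so it does not show how the scalings behave on these data. The labels give each library a replicate number but no animal, and the p-values may measure only the spread between libraries, in whatever way the authors' test took it in.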

Additional observations from a re-analysis of the deposited data

How the results depend on the processing

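Of the 5 members, FOS, EGR1, NR4A2, DUSP1 and BTG2 kept a negative log2 under upper quartile scaling, trimmed mean scaling, quantile normalization and pseudocounts of 0.1, 0.5 and 1 FPKM, and FOS ranged from -2.13 to -1.81. A pseudocount added to both groups cannot turn a sign, and upper quartile and trimmed mean scaling move all features by the same amount. The scalings moved the median of all tested features by 0.031 to 0.081 on the log2 scale. The median of the members, -0.90 as deposited, was -0.75 with 0.5 FPKM and -0.65 with 1 FPKM added to both groups. With a minimum of 5 FPKM in a group 2 members fell, FOS and DUSP1. By the authors' significant column 1 member fell, and among the other immediate early genes 0 fell and 0 rose, by construction of its 2-fold demand. At a q of 0.01 BTG2 was lost. A Benjamini-Hochberg adjustment over the tested rows, chosen after seeing the data, left 4 members lower, with adjusted p for BTG2 of 0.0140. The median of the AP-1 partner list reversed to -0.10 with a minimum of 5 FPKM, and that of the neuron markers to 0.022 (upper quartile) and 0.36 (quantile); the cause was not tested. Of 510 further values for lists 44 moved, most of them counts under stricter calls. No paired analysis was possible because the columns carry 1 value per group, and leaving out single libraries was not run for the same reason. The unknown depth limits what can be said of EGR3, NPAS4 and the other genes under 1 FPKM.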

Other observations

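Factors that bind AU-rich elements, through which many early gene messages are degraded, changed in both directions. Of 6 tested genes 3 fell, 2 rose and 1 did not pass. HNRNPD (AUF1) fell to 31.3 FPKM in the antibiotic group, against 122.5 FPKM in the control group, and ZFP36L1 fell to 25.4 FPKM, against 67.7 FPKM (both authors' q = 0.000336). TIA1, a component of stress granules, fell 1.77-fold, while KHSRP, a decay factor, rose 1.90-fold (both authors' q = 0.000336), and the other rise was that of ZFP36L2. Of 10 tested heat shock genes, which also respond quickly to stress, 4 fell (HSPH1, HSPE1, HSPD1 and DNAJA1) and none rose. Over all tested features 22.2% fell and 19.0% rose. HSPE1, the partner of the mitochondrial chaperonin, stood at 144 FPKM in the antibiotic group and 304 FPKM in the control group (authors' q = 0.000336).

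The genes next to the 5 members on the chromosome changed in both directions. Of 10 tested neighbours 2 fell, 4 rose and 4 did not pass, where 22.2% of all tested features fell and 19.0% rose. REEP2, which lies 18272 bases before EGR1, stood at 162 FPKM in the antibiotic group and 95.3 FPKM in the control group (authors' q = 0.000336). ERGIC1, which lies 54589 bases before DUSP1, rose as well (log2 0.77, authors' q = 0.000625). TMED10 and FLVCR2, on either side of FOS, had log2 values of -0.53 and 0.72 (authors' q = 0.0323 and 0.0146). ETF1, which lies after EGR1, fell (log2 -0.46, authors' q = 0.0223). These neighbours were chosen after the values of the members were seen.

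The annotation terms of FOS, DUSP1 and BTG2 did not run one way. Over the 30 terms that 10 to 200 tested features carry, the median log2 of the features other than members was negative for 14 and positive for 16, and ranged from -0.46 to 0.33. For the counts that follow, the shares over all tested features were 22.2% falling and 19.0% rising. The lowest median was that of FOS's term for transforming growth factor beta receptor signalling, with 5 of 14 other features falling and 2 rising. Of 20 other features annotated to protein methylation, as BTG2 is, 8 fell and 2 rose, with a median log2 of -0.35. The highest median was that of DUSP1's term for regulation of the apoptotic process, with 7 of 36 other features falling and 11 rising. Features that carry the deposited annotation "cellular response to calcium ion", which FOS has, numbered 14 among the tested features. Without FOS 3 of 13 fell and 4 rose, with a median log2 of -0.015. Of 10 other tested features annotated to negative regulation of MAP kinase activity, as DUSP1 is, 1 fell and 3 rose, with a median log2 of 0.16. These terms were chosen after their values were seen, and no annotation term was found in the rows of EGR1 and NR4A2.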
